A study of Populus tremula x Populus alba with 12 samples.

Results

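UGT71L1 is a UDP-glycosyltransferase of poplar, measured here as 1 transcript row, Potri.016G014500.1, of the 16866 rows counted in each library. The row was taken by its ID, it is the single row of its locus, and it was 1 of the 14279 rows that passed the filter on low counts. The data were RNA-seq of fully expanded mid-stem leaves from 12 libraries of the hybrid *Populus tremula* x *P. alba* (clone INRA 717), grown from in vitro culture and kept for 3 months in a greenhouse with lighting of 16 h. The 4 genotype groups of 3 libraries each were CRISPR glycosyltransferase knockout, intermediate phenotype ("intermediate" from here), empty-vector and wild-type; the last 2, 6 libraries in all, are called controls. All groups shared the clone and the growth conditions.

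Neither the edited glycosyltransferase nor the guide or the edits are named in the labels, which also do not say whether the libraries of a group came from 1 line or several. Each p-value therefore rests on the variation among these libraries, which may be technical. UGT71L1 has been disrupted by CRISPR in this hybrid in published work. A small edit need not lower an RNA, so the level of this transcript does not check the genotype labels. Leaf identity was not checked, because no gene names came with the IDs.

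UDP-glycosyltransferases move a sugar from a nucleotide sugar onto small molecules, which makes them soluble and fit for storage in the vacuole. In poplar and willow leaves some of the most abundant products are salicinoids, phenolic glucosides such as salicin, salicortin and tremulacin that deter herbivores. UGT71L1 is known to glucosylate salicyl benzoate, an ester built from benzenoid alcohols by benzoyltransferases, on the way to the larger salicinoids. The carbon comes from the phenylpropanoid pathway, which begins with phenylalanine ammonia-lyase, and the pathway borders on salicylic acid, the defence hormone of related structure.

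UGT71L1 was lowest in knockout leaves, where it was still counted in every library. Counts in knockout libraries 1, 2 and 3 were 56, 60 and 92, or 9.58, 11.2 and 10.1 CPM, a count relative to its library's total after TMM scaling between libraries. Intermediate libraries held 117, 214 and 266 counts, or 21.5, 35.7 and 28.2 CPM. Empty-vector libraries held 392, 1325 and 314 counts, or 36.5, 77.2 and 33.5 CPM. Wild-type libraries held 280, 218 and 226 counts, or 53.8, 38.9 and 34.6 CPM. The 3 knockout libraries lay below all 9 others, while intermediate library 2 lay inside the range of the controls and empty-vector library 2 lay above every other library.

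Knockout averaged 10.3 ± 0.822 CPM, intermediate 28.5 ± 7.12 CPM, empty-vector 49.1 ± 24.4 CPM and wild-type 42.4 ± 10.1 CPM (SD, n = 3 each). The 3 knockout libraries were also the closest to each other. Their highest value was 1.17 times their lowest, against 1.66 times in intermediate, 2.30 times in empty-vector and 1.55 times in wild-type. Counting error alone gives relative SDs of 10.4% to 13.4% at the knockout counts, and the SD between these libraries was 7.99% of their mean. The 77.2 CPM of empty-vector library 2 has an exact 95% Poisson interval of 73.1 to 81.5 CPM, clear of all others. That library was also the deepest, at 17.3 M counts, where the others held 5.38 to 10.3 M. Ranked among all rows of its own library, a measure that needs no scaling, UGT71L1 stood at percentiles 53.1 to 55.7 in knockout, 67.8 to 75.7 in intermediate and 74.7 to 87.3 in the controls.

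**Figure D1:**
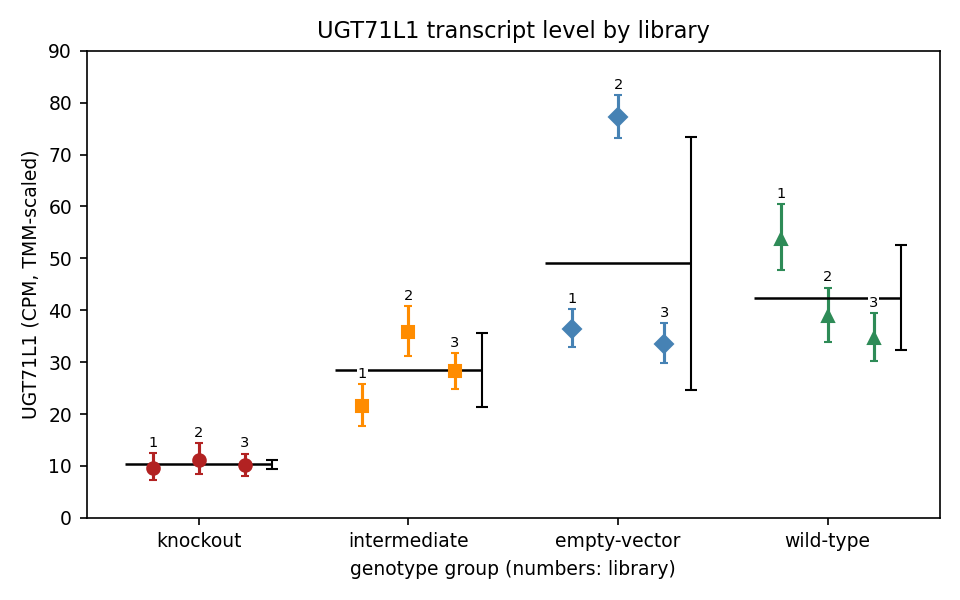
UGT71L1 in TMM-scaled CPM (vertical axis) in each of the 12 libraries by genotype group; coloured bars are exact 95% Poisson intervals of the counts, black lines the group means with SD (n = 3). The knockout libraries sit at 9.58 to 11.2 CPM, below the intermediate libraries at 21.5 to 35.7 CPM, and empty-vector library 2 stands alone at 77.2 CPM.

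The comparison of knockout with the 6 controls asked how far the transcript of this enzyme differed in edited leaves. It fell to 22.5% of the control level (95% interval 14.3% to 35.5%). On the log2 scale the change was -2.15 ± 0.30 (SE), with an edgeR quasi-likelihood adjusted p = 2.31e-04 (Benjamini-Hochberg, over all tested rows). The level was 24.3% of wild-type (95% interval 14.8% to 39.7%; edgeR adjusted p = 8.62e-04) and 20.9% of empty-vector (95% interval 12.8% to 34.1%; edgeR adjusted p = 4.08e-04). Lower calls were common in these leaves. Of all tested rows, 13.0% were called lower in knockout than in controls, 11.7% lower than in wild-type and 11.4% lower than in empty-vector. The number called lower than in controls, 1857, was 1176 without knockout library 1 and 1191 without knockout library 2. Among the 1857 rows, 393 had a larger fall than UGT71L1. An exact two-sided permutation test of log2 CPM, knockout against controls, gave p = 0.0238, the smallest that its 84 splits can give, and 0.0952 after Benjamini-Hochberg adjustment over the 4 such tests of UGT71L1. In bulk leaves, fewer cells that express the gene and less of its RNA per cell cannot be told apart.

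Intermediate leaves came next in the order. UGT71L1 was lower in knockout than in intermediate, at 36.1% of its level (95% interval 22.1% to 58.9%), or -1.47 ± 0.32 on the log2 scale (SE; edgeR adjusted p = 0.00865), and the libraries did not overlap. In this comparison 7.41% of all rows were called lower in knockout. With 3 libraries against 3 the exact permutation test gave p = 0.1, which is its smallest.

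Intermediate leaves held 62.4% of the control level (95% interval 41.4% to 94.0%), which is -0.68 ± 0.27 on the log2 scale (SE). The unadjusted p was 0.0275 and the edgeR adjusted p over all rows 0.692; edgeR called 0.00700% of rows in this comparison, which is 1 row. The exact permutation test gave p = 0.0714. Against empty-vector the intermediate level was 57.9% (95% interval 36.6% to 91.7%, edgeR unadjusted p = 0.0235, adjusted p = 0.347). Against its neighbour in the order, wild-type, the intermediate level was 67.3% (95% interval 42.3% to 107%; edgeR adjusted p = 0.928), so these neighbours did not differ beyond their spread.

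At the top, empty-vector and wild-type did not differ beyond their spread either. The empty-vector level was 1.16 times the wild-type level (95% limits 0.737 and 1.83; edgeR adjusted p = 0.741), and edgeR called 0.0420% of all rows, 6 in number. Without empty-vector library 2 edgeR called 1302 rows, and with all libraries DESeq2 called 243. The order of these means rests on empty-vector library 2, since without it the log2 fold change was -0.35 in place of 0.22.

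On the log2 scale, intermediate stood at 31.6% of the way from controls to knockout. Its distance from the midpoint between knockout and controls was 0.39 ± 0.26 (SE), on the control side, with an edgeR adjusted p of 0.533. Of all rows, edgeR called 1.17% away from that midpoint. The knockout and intermediate comparisons share their controls, so their values are not independent.

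The pathway step before UGT71L1 is benzoyl transfer. The list for it held 2 IDs, Potri.019G043600.1 and Potri.013G074500.1, known from published work as benzoyltransferases of salicinoid synthesis. This assignment and those of the lists that follow were recalled and not checked against an annotation. Potri.019G043600.1 stood at 445, 555 and 624 CPM in the knockout libraries and at 88.2, 140 and 134 CPM in the intermediate ones. The empty-vector libraries had 49.6, 112 and 55.9 CPM of it and the wild-type libraries 71.1, 58.1 and 50.3 CPM. It rose where UGT71L1 fell, by 3.04 ± 0.25 on the log2 scale (SE; edgeR adjusted p = 4.2e-06) in knockout against controls, where 17.1% of all rows were called higher. Potri.013G074500.1 stood at 609, 819 and 781 CPM in the knockout libraries and at 496, 814 and 580 CPM in the intermediate ones. The empty-vector libraries had 354, 725 and 349 CPM of it and the wild-type libraries 662, 426 and 290 CPM. Its difference between knockout and controls did not pass (0.65 ± 0.29 on the log2 scale, SE; edgeR adjusted p = 0.108).

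Within 3 of the groups, 1 library led in all of these transcripts. Empty-vector library 2, wild-type library 1 and intermediate library 2 were each the highest of their group in all 3 transcripts. In knockout, library 2 was the highest in UGT71L1 and Potri.013G074500.1, and library 3 in Potri.019G043600.1. For each library the counts of a benzoyltransferase row were therefore divided by the counts of UGT71L1, a ratio that is free of library scaling. The ratios were chosen after these values were seen, so they are a description with no test. In knockout they combine the fall of UGT71L1 with the values of the other row given above.

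For Potri.019G043600.1 there were 46.4, 49.6 and 61.8 counts per UGT71L1 count in the knockout libraries and 4.10, 3.92 and 4.74 in the intermediate ones. The empty-vector libraries had ratios of 1.36, 1.46 and 1.67, the wild-type libraries 1.32, 1.50 and 1.45. The knockout, intermediate and control libraries formed separate ranges with no overlap. The ratio averaged 52.6 ± 8.12 in knockout, 4.25 ± 0.431 in intermediate (SD, n = 3 each) and 1.46 ± 0.122 in controls (SD, n = 6). Over the 6 controls it varied with a CV of 8.35%, where UGT71L1 itself varied with a CV of 37.4%. The mean log2 ratio was higher by 5.16 in knockout and by 1.54, or 2.91-fold, in intermediate than in controls. Neither transcript alone was called between intermediate and controls by edgeR (adjusted p = 0.692 for UGT71L1 and 0.410 for Potri.019G043600.1).

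For Potri.013G074500.1 the knockout libraries had ratios of 63.6, 73.2 and 77.4 and the intermediate ones 23.1, 22.8 and 20.6. The ratios were 9.71, 9.39 and 10.4 in the empty-vector libraries and 12.3, 11.0 and 8.38 in the wild-type ones. Again the knockout, intermediate and control ranges were apart. Ratios of other rows to UGT71L1 were not taken, so these separate ranges are not shown to be particular to the 2 benzoyltransferase rows. The mean log2 ratio was higher by 2.81 in knockout and by 1.13, or 2.19-fold, in intermediate than in controls. Empty-vector and wild-type overlapped in both ratios. A ratio shows unequal change of 2 transcripts and not which of them moved.

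**Figure D2:**
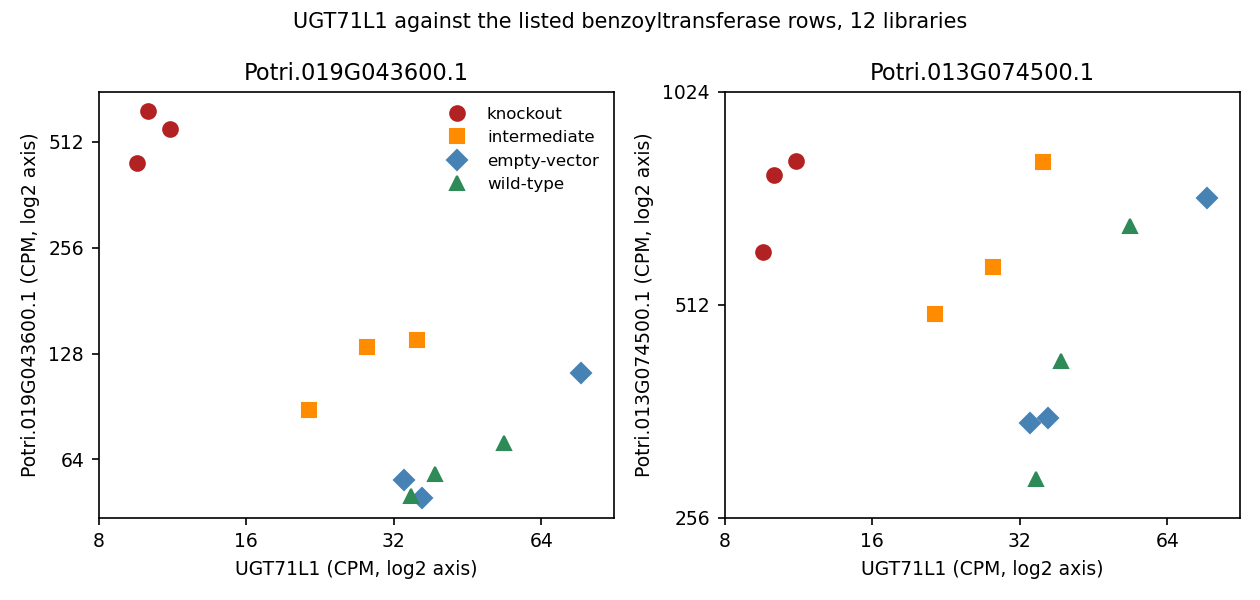
UGT71L1 (horizontal axis) against each listed benzoyltransferase row (vertical axis), both in CPM on log2 axes, 1 point per library. Within intermediate and within controls the points climb together, while the knockout points sit at the left, at 9.58 to 11.2 CPM of UGT71L1, and at the top for Potri.019G043600.1, at 445 to 624 CPM.

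**Figure D3:**
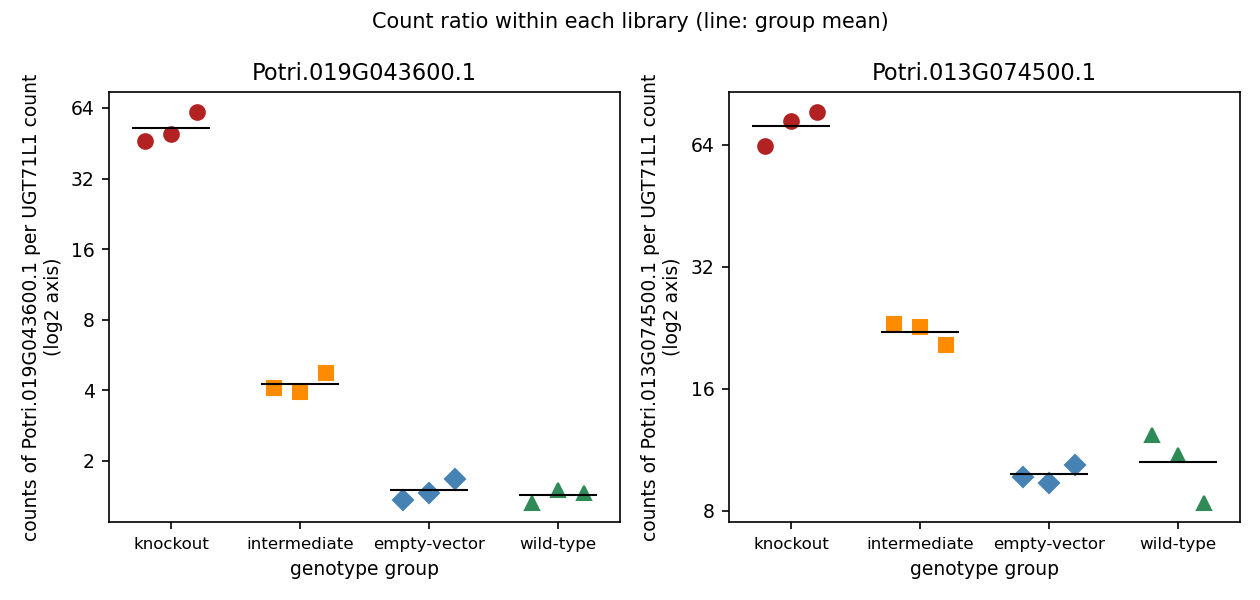
Counts of each benzoyltransferase row per UGT71L1 count in the same library (log2 axis) by genotype group; lines are group means. For Potri.019G043600.1 the knockout libraries lie between 46.4 and 61.8, the intermediate libraries between 3.92 and 4.74 and the 6 controls between 1.32 and 1.67.

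The shared variation was set beside that of all other rows. Each of 10002 rows with a mean of at least 5 CPM was correlated with UGT71L1 in log2 CPM, after subtraction of the group means, over the 12 libraries. Potri.013G074500.1 ranked at 2, with a Pearson r of 0.93, and Potri.019G043600.1 at 6, also with 0.93. The median row had -0.07. In all, 10 rows exceeded 0.9 and 12 lay under -0.9, down to -0.96. The highest r, 0.94, belonged to Potri.006G141400.1, which the files do not pair with a name. Its empty-vector libraries had 1326, 2647 and 1322 CPM and its wild-type libraries 2301, 1710 and 1189 CPM. Points of this kind share their library, its depth and its scaling factor, and the values describe 12 libraries. Without empty-vector library 2, r was 0.92 (rank 5) for Potri.013G074500.1, 0.81 (rank 53) for Potri.019G043600.1 and 0.92 (rank 4) for Potri.006G141400.1. Without intermediate library 1 the ranks were 26, 66 and 40 in the same order of rows, with r of 0.93, 0.91 and 0.92.

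Correlated over the 12 libraries without that subtraction, the highest r was 0.94, for Potri.007G036200.1 and Potri.014G070500.1. These values include the fall of UGT71L1 in knockout itself. Potri.007G036200.1 had 1.88, 2.05 and 2.63 CPM in the knockout libraries, against 9.66 ± 2.41 CPM over the 6 controls (SD), and its change was -2.12 ± 0.27 on the log2 scale (SE; edgeR adjusted p = 1.1e-04). Most opposite were Potri.012G036700.1 and Potri.T100100.1, with r of -0.97 and -0.96. Potri.T100100.1 had 284, 243 and 423 CPM in the knockout libraries, 81.6, 31.4 and 55.7 CPM in the intermediate ones and 25.8 ± 3.53 CPM over the 6 controls (SD). Over the 9 libraries that were not knockout, the highest r were 0.91 for Potri.005G210700.1 and 0.90 for Potri.007G045300.1, and over those 9 the benzoyltransferase rows had 0.38 for Potri.013G074500.1 and 0.05 for Potri.019G043600.1. The files pair none of these IDs with names.

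The carbon comes from the phenylpropanoid pathway, whose entry enzymes were listed together. The list does not separate steps that feed salicinoids from steps that lead to other products. Of 9 listed IDs for phenylalanine ammonia-lyases, cinnamate 4-hydroxylases and 4-coumarate-CoA ligases, 7 were measured and tested, and edgeR, DESeq2 and limma-voom each called 0 in knockout against controls (in edgeR, 1 was lower before adjustment, at the 0.05 threshold). Over all rows edgeR called 30.1% in this comparison. Their median log2 fold change was -0.10, beside -0.02 over all rows. The log2 values were -1.09 for Potri.003G188500.1, -0.15 for Potri.016G091100.1 and Potri.019G130700.1, -0.10 for Potri.006G126800.1 and Potri.013G157900.2, 0.35 for Potri.010G224100.1 and 0.48 for Potri.010G224200.1. Potri.016G091100.1 held 957 to 1611 CPM in empty-vector, 437 to 655 CPM in wild-type and 561 to 915 CPM in knockout. Its value of -0.15 is thus against the average of 2 unlike control groups. Between empty-vector and wild-type its log2 change was 1.27 ± 0.32 (SE, edgeR adjusted p = 0.174, unadjusted p = 0.00173). In that comparison DESeq2 called 1 listed row higher, edgeR and limma-voom 0. Potri.006G126800.1 averaged 2077 ± 431 CPM over the 3 knockout libraries and 2250 ± 620 CPM over the 6 controls (SD). Its r with UGT71L1 after subtraction of group means was 0.72, at rank 189.

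Of 2 IDs listed for salicylic acid, 1 was measured. It was Potri.006G148100.1, with 24.8, 26.7 and 17.9 CPM in the knockout libraries and 8.08, 9.01 and 10.9 CPM in the intermediate ones. Its empty-vector libraries had 14.0, 9.67 and 12.7 CPM and its wild-type libraries 7.11, 7.31 and 9.96 CPM. The knockout libraries lay above all others (1.21 ± 0.19 over controls on the log2 scale, SE, edgeR adjusted p = 4.39e-04). In that comparison 17.1% of all rows were called higher. For Potri.006G148100.1, empty-vector stood above wild-type by 0.57 ± 0.23 on the log2 scale (SE, edgeR adjusted p = 0.251, unadjusted p = 0.0289). Its r with UGT71L1 after subtraction of group means was -0.43.

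UGT genes of plants often stand in tandem rows whose members share sequence, and reads of near relatives can be split or shared by the counting. The rows around UGT71L1 were therefore taken from the numbering of the IDs on chromosome 16, which rises in steps along the chromosome. Within 10 steps there were 7 other rows, all tested; edgeR called 2 higher and 0 lower in knockout against controls, where 17.1% of all rows were called higher and 13.0% lower. These counts are near those shares. Before adjustment 0 were lower at the 0.05 threshold, and DESeq2 and limma-voom called 0 lower too. Their log2 fold changes ran from -0.53 to 1.14. Whether reads were shared between these rows was not tested.

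Within 50 steps either side, 50 rows were measured and 44 tested, of which 12 were called higher and 5 lower in knockout. These 17 calls are 38.6% of the tested rows, beside 30.1% called over all rows (17.1% higher and 13.0% lower). Without knockout library 1 or 2, 3 of the neighbouring rows were called lower. All 5 lower rows stood 24 to 37 steps below UGT71L1, and 7 of the 12 higher rows stood 20 to 30 steps above it. These positions were read off after the calls were seen, so they are a description with no test. The 2 control groups were not alike in some rows of this stretch, nor in many rows elsewhere. Before adjustment at the 0.05 threshold, edgeR had 9 of the 44 rows higher and 2 lower in empty-vector than in wild-type. Over all 14279 tested rows, 2409 were under that threshold in either direction. After adjustment edgeR called 0 of the 44 rows and DESeq2 called 4, all higher, where DESeq2 called 243 over all rows. Potri.016G011700.1, 1 of the lower rows, averaged 13.0 CPM in knockout, 13.8 CPM in wild-type and 24.9 CPM in empty-vector. The strongest falls were those of Potri.016G011600.1 and Potri.016G011400.1. Potri.016G011600.1 had 13.0, 4.66 and 11.7 CPM in the knockout libraries and 49.8, 66.3 and 54.7 CPM in the intermediate ones. Its empty-vector libraries had 120, 97.1 and 138 CPM and its wild-type libraries 48.2, 65.2 and 84.7 CPM, and knockout differed from controls by -3.16 ± 0.31 on the log2 scale (SE; edgeR adjusted p = 1.63e-05). Potri.016G011400.1 had 17.6, 10.1 and 15.6 CPM in the knockout libraries and 34.6 to 101 CPM in the controls (-2.19 ± 0.23 on the log2 scale, SE; edgeR adjusted p = 3.01e-05).

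The strongest rises of the stretch were those of Potri.016G017300.1 and Potri.016G016800.1. Potri.016G017300.1 had 7.36, 8.02 and 17.9 CPM in the knockout libraries, 0 to 0.668 CPM in the intermediate ones and 0.178 to 1.30 CPM in the controls (3.87 ± 0.48 over controls on the log2 scale, SE; edgeR adjusted p = 8.69e-05). Potri.016G016800.1 had 33.2, 27.4 and 30.4 CPM in the knockout libraries and 5.38 to 12.1 CPM in the controls (1.99 ± 0.20 on the log2 scale, SE; edgeR adjusted p = 1.92e-05). Between intermediate and controls edgeR, DESeq2 and limma-voom each called 0 of the 44 rows. In edgeR, 6 were lower and 0 higher before adjustment at the 0.05 threshold. Over all 14279 tested rows, 913 were under that threshold in either direction.

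**Figure D4:**
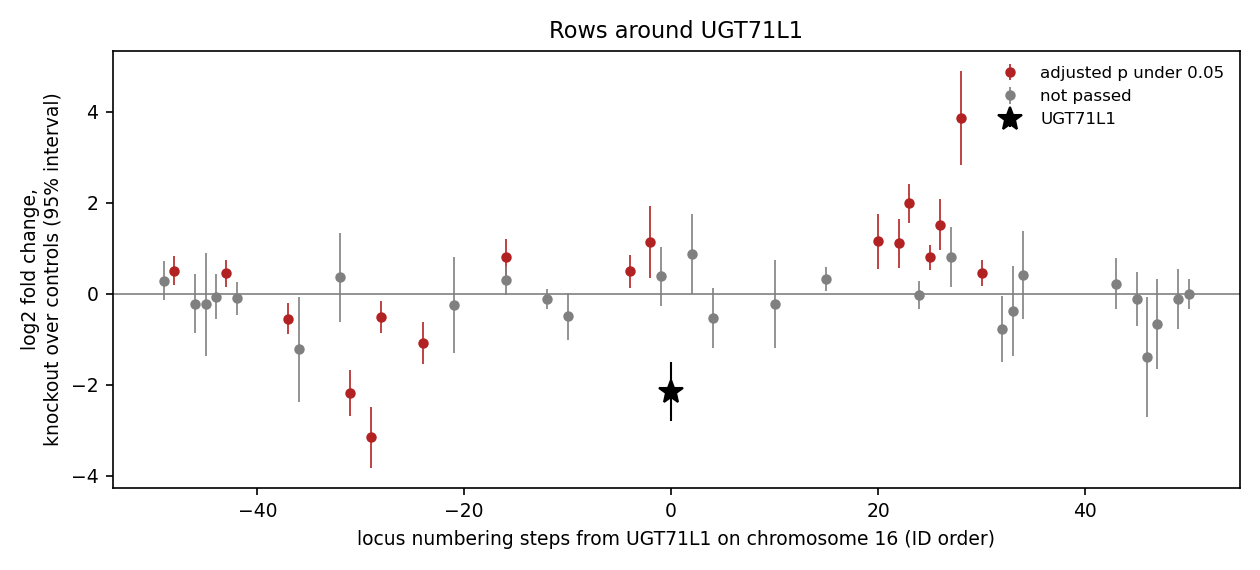
Log2 fold change of knockout over controls with its 95% interval (vertical axis) for the 44 tested rows within 50 numbering steps of UGT71L1 (horizontal axis, order of IDs) and for UGT71L1 (star). UGT71L1, at -2.15, stands among rows of -0.53 to 1.14 in the 10 steps either side. Called falls lie 24 to 37 steps below it and several called rises 20 to 30 steps above it, positions read off after the calls were seen. Rows that did not pass lie among both.

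Leaves hold veins, and the share of vein tissue can differ between samples. Of 5 IDs listed as cellulose synthases of the xylem secondary wall, 3 were measured and none was at 0 in any library. Their summed level was 357 to 1527 CPM in knockout, 676 to 930 CPM in intermediate, 658 to 1291 CPM in empty-vector and 497 to 933 CPM in wild-type. Knockout libraries 1, 2 and 3 held 1402, 1527 and 357 CPM of this list, a range of 4.28 times, while their UGT71L1 level spanned 1.17 times. Of these 3 rows edgeR, DESeq2 and limma-voom each called 0 in knockout against controls, where edgeR called 30.1% of all rows, and 0 passed the 0.05 threshold in edgeR before adjustment. The part of vein tissue in the UGT71L1 values was not tested.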

How the data were processed

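The authors deposited raw read counts per transcript row, with totals of 5.38 to 17.3 M per library. Per the submitters' processing notes, the tools included HTSeq, HISAT2, Cufflinks, SAMtools and DESeq2; roles, versions, build and strand setting were not given in the sources used here. No annotation or sequence was used here.

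Rows were filtered with filterByExpr (minimum count 10, minimum total 15, proportion 0.7), leaving 14279 rows with 99.8% of counts, and scaled by TMM in edgeR 4.0.16 (R 4.3.3). Group means were fitted to all 12 libraries (8 residual degrees of freedom, no covariate) and tested two-sided by quasi-likelihood with Benjamini-Hochberg adjustment over all tested rows (threshold 0.05). The level of the controls is the mean of the fitted empty-vector and wild-type levels on the log2 scale. Each SE is the log2 change over the root of F. Poisson intervals cover counting error only. For correlations, 2 was the prior count added before log2. The BCV of UGT71L1 was 27.2%, beside 24.6% in common. The test was checked on simulated counts, in which a small part of the rows changed, in knockout only, and no library was set apart. That check does not cover a library such as empty-vector library 2. Replicate pairs had chi-square values of at least 8.48 per degree of freedom, so none was treated as a duplicate.

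Library numbers only name libraries. The gene and the lists were chosen with earlier results of these data known. Named were UGT71L1, every measured member of the pathway lists (the xylem markers are given as a sum), the called neighbours of largest change (2 higher and 2 lower, since no names were at hand), the 2 rows of highest and the 2 of lowest r over 12 libraries and the 2 of highest r over 9. Potri.006G141400.1 was named after its values were seen. Description-based lists could not be used. Alternatives used DESeq2 1.42.0 and limma-voom (limma 3.58.1).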

Additional observations from a re-analysis of the deposited data

Results flagged for a closer look

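Dixon's gap test was run on 14 measures over the 6 controls; groups of 3 were not tested, and chance flags about 1 in 20. Potri.019G043600.1 was marked because empty-vector library 2, at 112 CPM, stood apart from the other controls at 49.6 to 71.1 CPM (gap over range 0.659, limit 0.625). The same library was the highest in UGT71L1, whose own gap of 0.536 did not pass, and the count ratio of these transcripts in that library, 1.46, lay in the middle of the controls (gap 0.499). Potri.013G157900.2, on the phenylpropanoid entry list, was marked because empty-vector library 1 had 3.35 CPM (gap 0.92) where the other 5 controls had 1.84 to 1.96 CPM.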

How the results depend on the processing

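The fall of UGT71L1 in knockout against controls kept its direction and its call in 19 alternatives (log2 fold change -2.26 to -1.95, adjusted p up to 0.00231), as did that against intermediate in 14 (-1.64 to -1.28, adjusted p up to 0.0376). Intermediate against controls kept its direction and stayed above the threshold in 19 (-0.87 to -0.46), and against the midpoint in 21 (0.21 to 0.56); the fit of the compared groups alone is the same fit for the midpoint. Empty-vector against wild-type ran from -0.35 to 0.43, turning to -0.35 without empty-vector library 2. Leaving out 1 library, neighbouring rows called lower numbered 3 to 7 (3 without knockout library 1 or 2), listed pathway rows called lower 0 to 1 (1 without empty-vector library 2). The log2 ratio differences ran from 5.04 to 5.25 and 1.46 to 1.60 for Potri.019G043600.1, and from 2.75 to 2.90 and 1.07 to 1.19 for Potri.013G074500.1 (knockout, then intermediate, over controls). Calls over all rows moved by over 1.5 times in knockout against controls, lower only (1857, or 1176 and 1191 without knockout library 1 or 2), knockout against intermediate (2478, or 1566 and 1607 without intermediate or knockout library 2), intermediate against controls (1, or 0 to 63), empty-vector against wild-type (6, or 0 to 1302) and the midpoint (167, or 1 to 568). No paired analysis was possible because the labels share no replicate numbers between groups. The precision of the knockout level rests on 56 to 92 counts a library.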
